A study of Homo sapiens with 2 samples.

Results

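The mitochondrial protein import machinery was followed here as 32 genes of the 60664 in the count files: the outer-membrane entry gate (TOM), the inner-membrane translocases (TIM22 and TIM23) with their intermembrane-space chaperones, the import motor (PAM) and the outer-membrane sorting machinery (SAM). The genes were chosen by name, not by a cut on measured values, though earlier results of these data were known. All 32 matched an Ensembl identifier. RNA came from HEK293T, an established human line derived from embryonic kidney cells and carrying the SV40 large T antigen, labelled wild type and untreated. The 2 libraries form the only group, so levels within the libraries and the spread between the libraries are described, and no contrast of conditions exists. They belong to a study of R-loop mapping. For replicate 2 the cell line entry differs from its own title by a digit, and the title was followed.

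Mitochondria make only a few of their own proteins and import the rest from the cytosol. Precursors bind receptors of the TOM complex and cross its channel. Those with a cleavable presequence then pass through TIM23 and are pulled inward by the PAM motor. Metabolite carriers are escorted by small TIM chaperones to TIM22, and β-barrel proteins are handed to SAM. A transcript level is not a protein level, and the subunits of a complex need not be made from equally abundant mRNAs.

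Replicate 1 held 18011638 assigned counts and replicate 2 held 18575058. HEK293T-associated genes fixed for the check (UCHL1, INA, HOXD11, SIX2, LIN28B, VIM and KRT18) were all detected, 7 of 7, whereas none of 8 markers of blood, liver, fibroblasts, endothelium or differentiated kidney reached 1 CPM (counts per library, brought to one shared total) in both libraries. CD3E, COL1A2 and DCN had 0 counts in both libraries, which allows up to 0.167 CPM in replicate 1 and 0.162 CPM in replicate 2, counting error only. Each ± is an SD between the libraries (n = 2). Whether they came from separate cultures is not in the labels, so this spread may be technical.

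Every import gene reached 1 CPM in each library and so counted as detected, 32 of 32, against 65.9% of the 19890 protein-coding genes. The smallest count of any member in either library was 332 (GRPEL2, replicate 2) and the largest 6450 (HSPA9, replicate 2). The 32 genes together took 0.374% of the counts in replicate 1 and 0.381% in replicate 2. On the TPM scale (counts divided by exon length and scaled to a common sum, so that genes can be compared) their median was 62.6 in replicate 1 and 59.0 in replicate 2. The median of all protein-coding genes was 3.07 and 2.66 TPM. All 32 members lay above the latter, the lowest at percentile 70.5 of protein-coding genes (GRPEL2), the middle of the list at 92.5 and the highest at 99.2 (TOMM6). Among members, mean TPM spanned 69.4-fold, and mean CPM, without length correction, 14.9-fold.

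**Figure D1:**
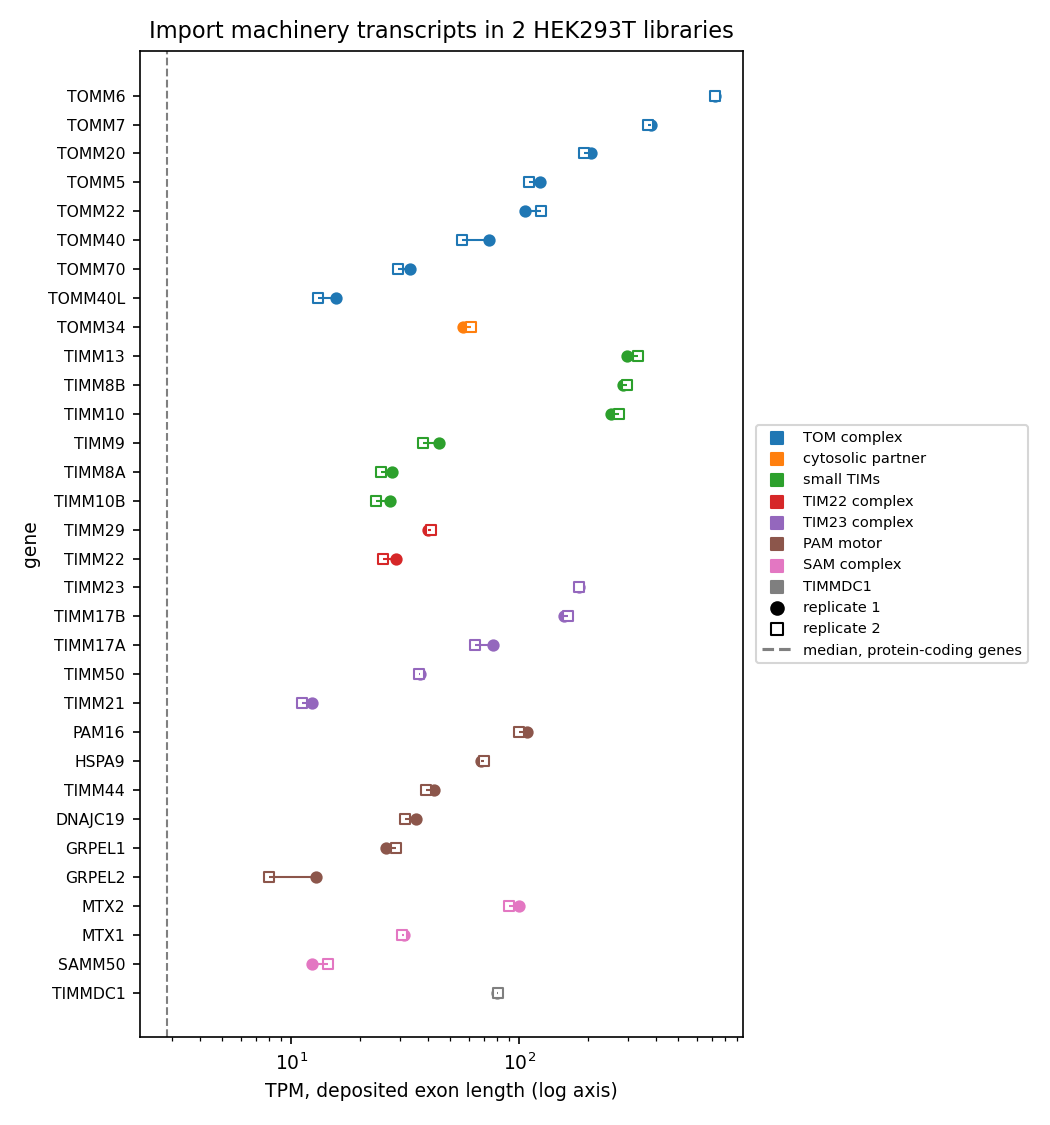
Level of each import gene in TPM (log axis), with a filled circle for replicate 1 and an open square for replicate 2, coloured by complex; the dashed line is the median of protein-coding genes, 2.86 TPM. Members run from GRPEL2 (12.9 and 7.998 TPM) to TOMM6 (726 and 722 TPM), and all lie to the right of the line.

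In the order of mean TPM, 15 of 31 pairs of neighbouring members had library values that overlapped, so many places in the middle and at the foot of the list are not resolved by these libraries. The first 8 places were each separated from the next: TOMM6, TOMM7, TIMM13, TIMM8B, TIMM10, TOMM20, TIMM23 and TIMM17B. At the foot TOMM40L, SAMM50, TIMM21 and GRPEL2 followed one another with overlapping values. Pearson's r of log2 TPM between the libraries was 0.994 across the 32 genes (Spearman's rho 0.990) and 0.978 across 11973 protein-coding genes averaging at least 50 counts (rho 0.986). These describe genes within the same libraries, not independent replicates. Exonic bases were shared with another gene by 17 of the 32 members, and 4 of them (TOMM6, TIMM8B, TIMMDC1 and TIMM9) shared 25% or more.

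TOM, the complex with the most genes here, held the largest share of the machinery's TPM and CPM. Its median gene had 116 TPM against 152 for the small TIM genes, and 167 CPM against 70.6. TOMM7, a small accessory subunit, stood well above the channel gene TOMM40 (373 ± 8.15 against 64.95 ± 12.0 TPM), and TOMM5 had 117 ± 9.17 TPM. The 8 TOM genes summed to 1664 TPM in replicate 1 and 1617 in replicate 2, or 44.4% ± 0.726 of the TPM of all 32 members. TOMM5, TOMM6 and TOMM7, short tail-anchored subunits that steady the assembled complex, held 74.0% ± 0.28 of the TOM total (73.8% and 74.2%) and 52.7% ± 0.444 of it in CPM. The TPM share rests largely on TOMM6 (mean 724 TPM), whose counts are uncertain, as are those of TOMM5.

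TOMM6 had 4035 counts in replicate 1 and 4321 in replicate 2, which gave 726 and 722 TPM. It lies at chromosome 6 from 41787662 to 41789898 (GRCh38, plus strand), and all 637 of its exonic bases lie within exons of ENSG00000124593 on the same strand, a gene with 4240 and 4559 counts. Reads in these bases cannot be assigned to 1 of the 2 genes, so the first place of TOMM6 is uncertain. TOMM7 had 5787 and 6043 counts (379 and 367 TPM) and shared no exonic base with another gene. TOMM5 had 3890 and 3750 counts (124 and 111 TPM). It shares 14.4% of its exonic bases with ENSG00000255872 (3748 and 3912 counts) and 9.43% with ENSG00000256966 (3522 and 3747 counts), both on its strand. The counts of those genes are close to those of TOMM5, which is therefore uncertain as well.

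Among the receptors, TOMM20, which binds presequences, had 6203 and 6207 counts, the highest mean CPM of the list (339 ± 7.23), and 207 and 192 TPM. TOMM70, which docks cytosolic chaperones that carry hydrophobic precursors, had 33.1 and 29.5 TPM. TOMM20 thus stood 6.25-fold above TOMM70 in replicate 1 and 6.52-fold in replicate 2, a gap wider than the spread of either gene. TOMM22, the central receptor and organiser of the complex, had 2020 and 2567 counts (106 and 125 TPM). TOMM40, the β-barrel channel itself at chromosome 19 from 44890569 to 44903689, had 2313 and 1914 counts (73.5 and 56.4 TPM). TOMM22 exceeded TOMM40 by 1.45-fold in replicate 1 and 2.22-fold in replicate 2 in TPM. In CPM the order of the 2 genes changed between libraries, with ratios of 0.873 and 1.34.

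TOMM40L, the second TOMM40-type channel gene, was detected at 453 and 407 counts (15.8 and 13.2 TPM). TOMM40 stood 4.65-fold and 4.29-fold above it. TOMM40L shares 20.1% of its exonic bases with NR1I3 on the opposite strand, which had 182 and 164 counts. TOMM34, a cytosolic co-chaperone that binds precursors before they reach the TOM receptors, had 56.8 and 61.6 TPM.

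The small TIM genes fell into 2 levels. These proteins chaperone hydrophobic precursors across the intermembrane space as hexamers: TIMM9 with TIMM10, and TIMM8A with TIMM13. TIMM13 had 299 TPM in replicate 1 and 332 in replicate 2. TIMM8B, a relative of TIMM8A, had 285 and 296 TPM, and TIMM10 had 252 and 274 TPM. TIMM9 had 44.4 and 37.9 TPM, TIMM8A 27.8 and 24.9 and TIMM10B, which tethers the chaperone hexamer to TIM22, 27.0 and 23.6. This split was read from the values, so a gap between the upper 3 and the lower 3 follows from it and is no separate evidence. The same holds for the large share of the upper 3, which was 90.3% ± 1.33 of the small TIM total in TPM. In CPM it was 83.2% ± 2.11.

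Partners of one hexamer therefore had unequal transcript levels. TIMM9 stood at 0.176 of TIMM10 in replicate 1 and 0.138 in replicate 2. On the CPM scale these ratios were 0.322 and 0.252, and with lengths taken from the longest coding transcript 0.164 and 0.128, so the direction was the same on each scale. TIMM13 exceeded TIMM8A 10.8-fold and 13.4-fold in TPM, and 5.81-fold and 7.21-fold in CPM. TIMM8B exceeded TIMM8A, the X-linked gene mutated in deafness-dystonia syndrome, 10.3-fold and 11.9-fold in TPM and 3.88-fold and 4.50-fold in CPM. TIMM13 and TIMM8B were close, at ratios of 1.05 and 1.12. That order turned to 0.643 ± 0.0303 with the longest coding transcript as the length, so it is not settled. TIMM8B shares 30.1% of its exonic bases with NKAPD1 on the opposite strand (876 and 906 counts). TIMM13 shares 18.8% with TMPRSS9 (56 and 39 counts), and TIMM9 shares 26.5% with 3 other genes, of which KIAA0586 had the most counts (286 and 273).

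The genes of TIM22, the carrier translocase, stood near the lower small TIM genes. TIMM22, its channel-forming subunit, had 801 and 753 counts (28.9 and 25.2 TPM), and TIMM29, a subunit that supports its assembly in animals, 621 and 692 counts (39.9 and 41.3 TPM). TIMM22 stood at 0.158 and 0.138 of TIMM23, the related channel of the presequence route, in TPM, and at 0.422 and 0.370 in CPM. TIMMDC1, which is related to these channels but serves complex I assembly, had 79.7 and 80.9 TPM. It shares 29.4% of its exonic bases with CD80 on the opposite strand, a gene with 4 and 8 counts.

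In the TIM23 complex the channel gene TIMM23 and its partner TIMM17B were highest in TPM with the deposited length. In mean CPM the order was TIMM17B (204), TIMM50 (130), TIMM17A (122), TIMM23 (108) and TIMM21 (30.1). TIMM23 had 1899 and 2038 counts (183 and 182 TPM), and 169 and 190 counts fell on TIMM23B, a near-identical copy on the same chromosome, and 466 and 407 on TIMM23B-AGAP6, annotated as a lincRNA on that chromosome, so a part of the TIMM23 signal is uncertain. TIMM17B had 158 and 164 TPM, and its paralogue TIMM17A had 76.7 and 64.2 TPM. TIMM17A was lower than TIMM17B in both libraries, at 0.486 and 0.392 of it in TPM and 0.665 and 0.536 in CPM. The paralogues together stood at 1.28 and 1.25 of TIMM23 in TPM, 3.09 and 2.97 in CPM, and 2.97 and 2.92 with transcript lengths, so this ratio depends on the length used. TIMM17B shares 14.2% of its exonic bases with PQBP1 on the opposite strand, which had 3059 and 3880 counts. No strand setting is given, so the level of TIMM17B and its ratio to TIMM17A are uncertain. TIMM50, the receptor that meets presequences as they leave TOM, had 36.6 and 36.2 TPM. TIMM21, which links TIM23 to TOM and to respiratory chain complexes, was the lowest of the complex with 12.3 and 11.1 TPM.

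**Figure D2:**
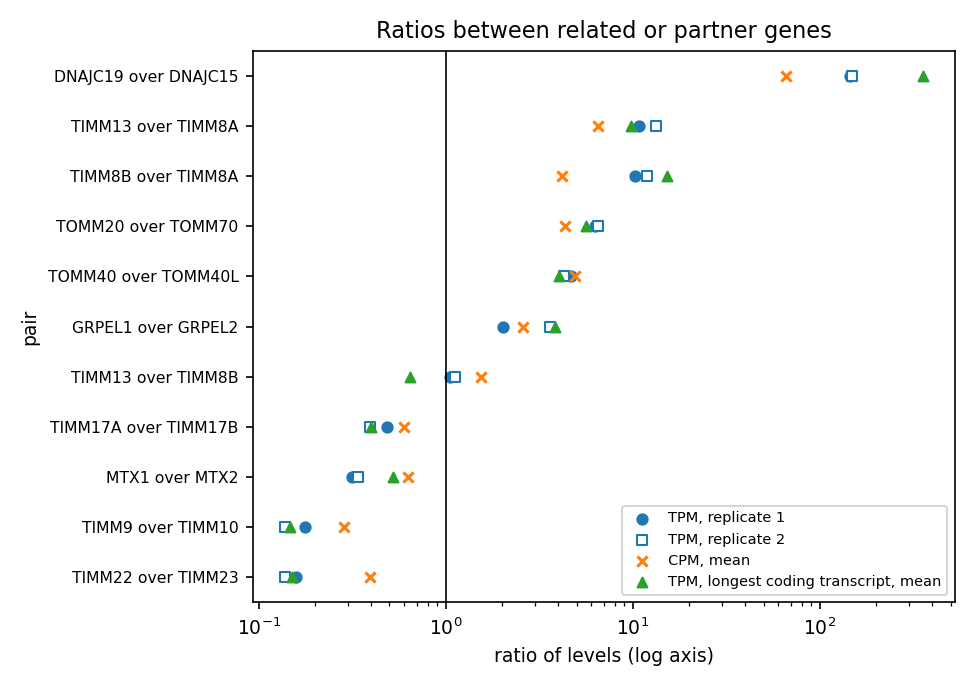
Ratio of levels (log axis) within 11 pairs of related or partner genes, with circles and squares for TPM in replicates 1 and 2, crosses for mean CPM and triangles for mean TPM with the longest coding transcript as the length. The libraries lie on the same side of 1 in all 11 pairs in TPM, and TIMM13 over TIMM8B is the pair in which a length choice puts the ratio on the other side (0.643).

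The import motor was dominated in counts, but not per length, by its ATPase. HSPA9, the matrix Hsp70 that pulls precursors inward, had 5834 and 6450 counts, 324 and 347 CPM, which was 48.9% ± 1.95 of the 6 motor genes in CPM. Its merged exons span 9782 bases, and in TPM it had 68.4 and 70.2, or 24.3% ± 1.41 of the motor total. PAM16, which holds the J-protein in check, had 108 and 99.7 TPM. It shares 522 exonic bases with CORO7-PAM16, a readthrough gene with 2402 and 2461 counts against 2196 and 2183 for PAM16, and is uncertain. TIMM44, the scaffold that brings HSPA9 to the channel, had 42.5 and 39.0 TPM. DNAJC19, the J-protein that stimulates HSPA9, had 35.4 and 31.6 TPM.

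DNAJC19 and GRPEL1 were the main forms of their pairs. DNAJC15, the second J-protein of this type, had 17 and 16 counts and missed 1 CPM in both libraries, and DNAJC19 stood 146-fold and 149-fold above it in TPM (65.1-fold and 66.6-fold in CPM). GRPEL1, a nucleotide exchange factor that resets HSPA9, had 924 and 1102 counts (26.1 and 28.9 TPM). GRPEL2, its paralogue at chromosome 5 from 149345430 to 149354583, had 496 and 332 counts (12.9 and 7.998 TPM). GRPEL1 was higher in both libraries, 2.03-fold in replicate 1 and 3.62-fold in replicate 2, so the size of the gap differed between the libraries. HSPA9 exceeded the 2 exchange factors together by 1.75-fold and 1.90-fold in TPM, 4.11-fold and 4.498-fold in CPM, and 2.72-fold and 2.85-fold with transcript lengths.

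In SAM, the β-barrel inserter was lower than its metaxin partners. SAMM50, which folds β-barrels into the outer membrane, had 689 and 874 counts (12.3 and 14.5 TPM). MTX2 had 99.7 and 90.1 TPM and MTX1, whose product caps the complex on the cytosolic side together with that of MTX2, 31.4 and 30.7 TPM. MTX1 stood at 0.315 and 0.341 of MTX2. SAMM50 has merged exons of 6410 bases against 1717 for its longest coding transcript, and with the latter length its mean level was 47.1 TPM, beside 58.7 for MTX1 and 112 for MTX2. The order of the 3 genes was the same with both lengths and in CPM.

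The length behind TPM moved several members by more than the spread between libraries. TPM on transcript lengths was scaled over the 19632 genes that have such a length, not over all 60664. TOMM6, with 637 bases on both lengths, went from 724 to 681 TPM through this scaling alone. The deposited length merges every annotated exon and was over 2 times the longest coding transcript for TOMM5 (4.46), SAMM50 (3.73), PAM16 (3.23), TIMM50 (2.80), DNAJC19 (2.47), TIMM17B (2.33), TOMM7 (2.25), TIMM44 (2.23), TIMM17A (2.11), HSPA9 (2.07) and MTX1 (2.01). With the transcript length, TOMM7 (789 TPM) came before TOMM6 (681), TOMM5 rose from place 9 to place 3 with 491 TPM, and PAM16 from place 11 to place 6 with 315. GRPEL2 was last by mean TPM on both lengths and by mean CPM. Across the 32 genes the log2 levels on the 2 lengths had Pearson's r 0.917 (Spearman's rho 0.933). The transcript lengths are from GENCODE 29, which differs from the annotation counted. TIMM13 had 1664 bases as deposited against 1973 for its transcript, and TOMM34, TIMM23 and TIMM22 were also shorter as deposited.

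**Figure D3:**
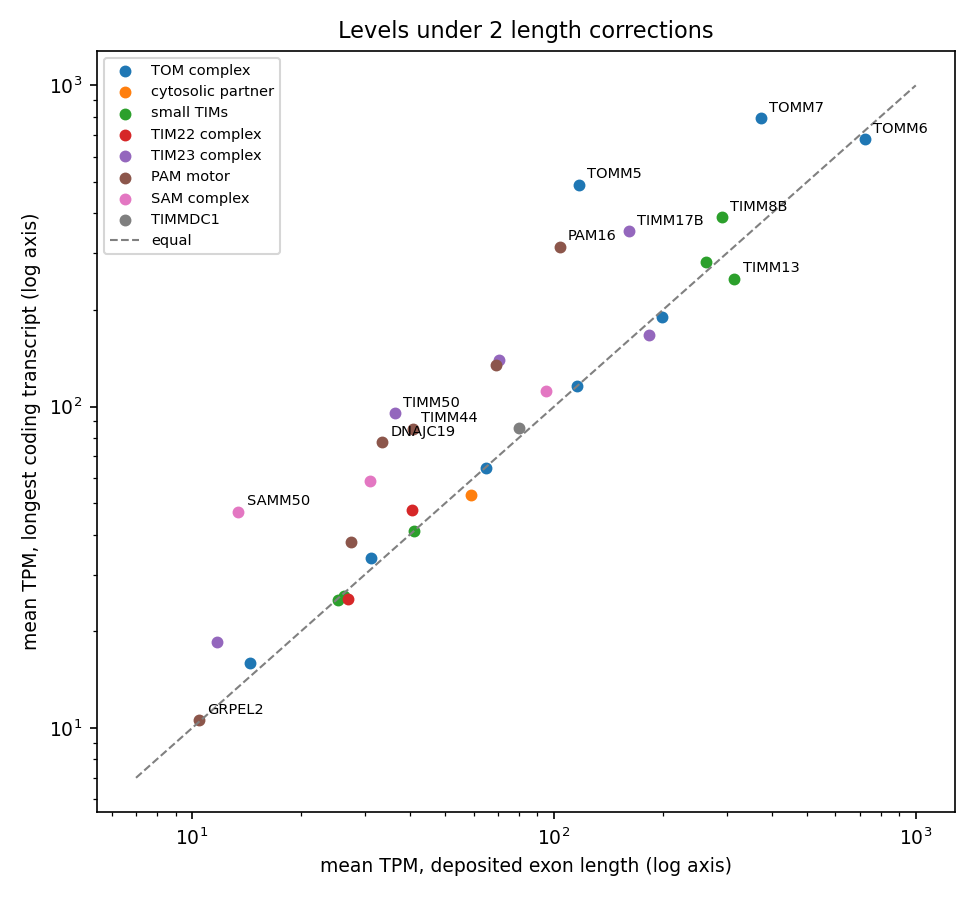
Mean TPM of the 32 genes with the deposited exon length (horizontal, log axis) and with the longest coding transcript (vertical, log axis), coloured by complex, with a dashed line of equality. TOMM5 (117 and 491 TPM), PAM16 (104 and 315) and SAMM50 (13.4 and 47.1) lie well above the line, and TIMM13 (315 and 250) lies below it. The vertical scale is summed over fewer genes, so a gene of equal lengths, such as TOMM6, falls slightly below the line.

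Shorter members were in part the higher ones. At a limit chosen after seeing the data, the 13 members with an annotated coding sequence under 500 bases had a median of 117 TPM and 125 CPM, and the other 19 had 40.6 TPM and 78.5 CPM. Across members, log2 TPM and log2 coding length had Pearson's r -0.49 (Spearman's rho -0.46), and in CPM r was -0.15 (rho -0.17). Over 11973 protein-coding genes averaging at least 50 counts, r was -0.49 in TPM and -0.26 in CPM. TPM is divided by a length, so the first relation shares a term with its axis.

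The libraries were close for nearly all members. The log2 ratio of replicate 2 over replicate 1 (TMM-scaled, prior count 2) passed 1 in 0 of 32 members, against 2.06% of the 14704 genes that averaged at least 50 counts (1.92% lower and 0.143% higher in replicate 2). Of the members 16 were lower and 16 higher in replicate 2, with a median ratio of 0.02, against -0.01 over protein-coding genes at that depth. One member, GRPEL2, passed 0.5 log2, or 3.12% of the list, against 11.7% of all genes, and 6.24% of the 6880 genes within the members' range of mean counts. The 95% counting interval of the ratio excluded 0 in 15 members, 11 of them higher and 4 lower in replicate 2, against 47.0% of all genes and 58.4% of those at the members' depth. These intervals cover counting error only, and 1 library on each side gives no replicate check.

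GRPEL2 had the widest ratio, -0.59 (counting interval -0.80 to -0.39), from its 496 and 332 counts. TOMM40 followed among the lower members at -0.29 (-0.37 to -0.20), then TOMM40L at -0.17 (-0.36 to 0.03) and TIMM17A at -0.16 (-0.25 to -0.08). Among the higher members were TOMM22 at 0.33 (0.25 to 0.42), SAMM50 at 0.33 (0.18 to 0.48), TIMM13 at 0.25 (0.19 to 0.31) and GRPEL1 at 0.24 (0.11 to 0.37). Subunits of 1 complex thus lay on either side of 0: TOMM22 and TOMM40 in TOM, TIMM17B and TIMM17A in TIM23, and GRPEL1 and GRPEL2 in the motor. The upper 3 small TIM genes were each higher in replicate 2 (TIMM13, TIMM10 and TIMM8B at 0.25, 0.21 and 0.15), and the lower 3 had ratios of -0.14 (TIMM9), -0.10 (TIMM10B) and -0.06 (TIMM8A) with counting intervals that held 0.

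**Figure D4:**
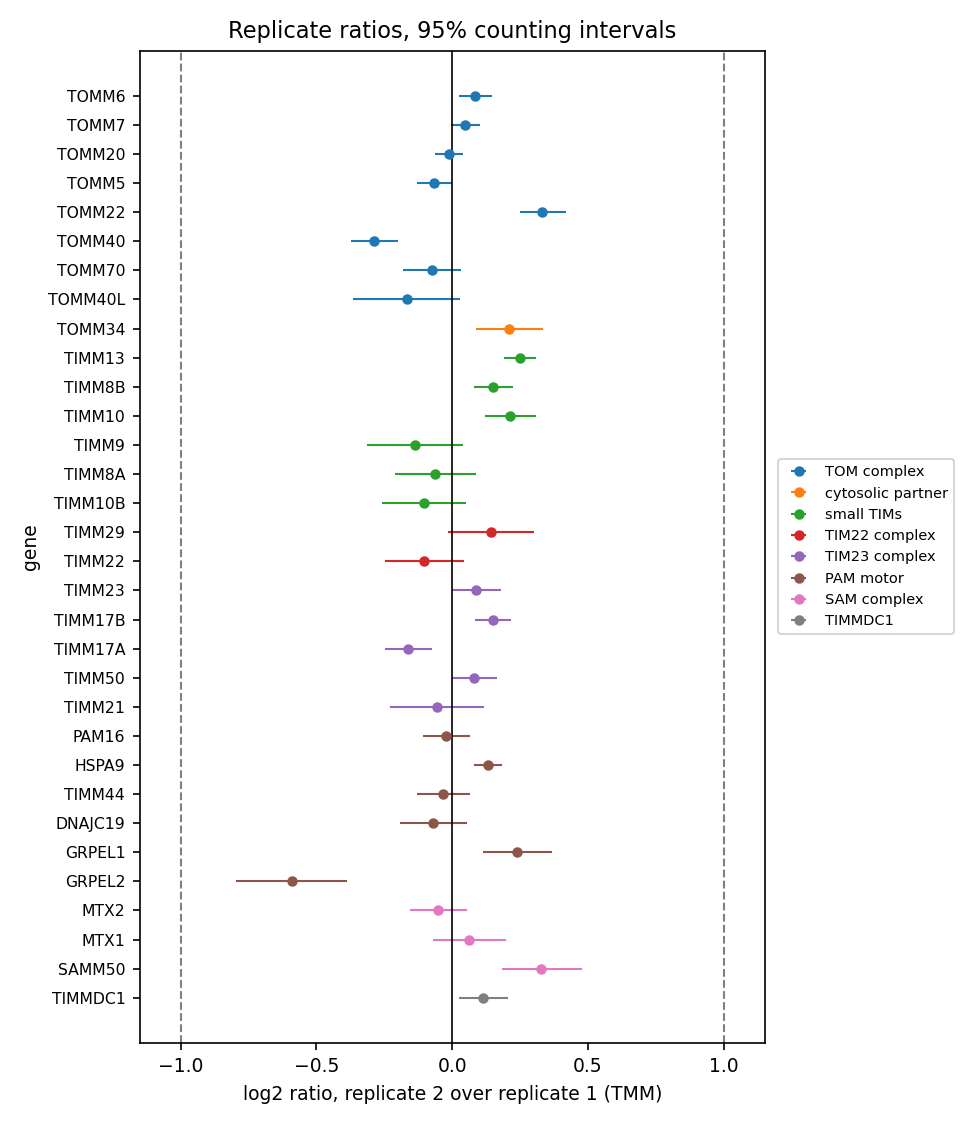
Log2 ratio of replicate 2 over replicate 1 for each import gene (horizontal axis), with bars for the 95% counting interval, coloured by complex, and dashed lines at -1 and 1. All 32 points lie between the dashed lines, and GRPEL2 at -0.59 is the farthest from 0.

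The base composition of transcripts moved with these ratios. Over the protein-coding genes at that depth, the ratio and the GC content of the longest coding transcript had Pearson's r 0.43 (Spearman's rho 0.48), and over the 32 members r was 0.31 (rho 0.39). GRPEL2 had the lowest GC content of the members, 38.9%, and TIMM13 the highest, 63.6%. After centring on GC content the ratio of GRPEL2 was -0.35, that of TIMM13 0.16 and that of TOMM40 -0.40. TIMM17A was then at 0.01 and TIMM17B at 0.04, so these paralogues no longer lay on either side of 0, whereas GRPEL1 (0.24) and GRPEL2, and TOMM22 (0.33) and TOMM40, still did. SAMM50 was at 0.29. Of the upper small TIM genes, TIMM10 was then at 0.15 and TIMM8B at 0.19. Of the lower ones, TIMM9 and TIMM8A were both at 0.01 and TIMM10B at -0.11, so only TIMM10B stayed below 0.

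Pseudogenes took few counts, but the handling of reads that match several places is not given. These counts therefore do not show how many reads the parents and pseudogenes share. Of 36 genes named as pseudogenes of 12 members, 25 had 0 counts in both libraries. All 36 summed to 92 counts in replicate 1 and 91 in replicate 2, against 27273 and 28773 for the 12 parent genes. The highest were MTX1P1 with 26 and 37 counts, beside 898 and 947 for MTX1, and TOMM40P2 with 28 and 31, beside 2313 and 1914 for TOMM40.

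Import-related genes outside the 32 were also detected, 36 of 37, with medians of 26.7 and 28.6 TPM. CHCHD4 (35.9 ± 1.34 TPM) and GFER (40.7 ± 2.72), the oxidoreductase relay that locks small TIM proteins in the intermembrane space, were near TIMM9 and far below TIMM10, and AIFM1, which binds CHCHD4, had 15.0 ± 0.832. The presequence protease subunits PMPCB and PMPCA had 35.2 ± 5.03 and 27.7 ± 1.34 TPM, and XPNPEP3 (3.09 ± 0.358) and IMMP2L (2.84 ± 0.539) were lowest among the 6 peptidases. Of the membrane insertases, MTCH1 had 119 ± 9.57 TPM, MTCH2 53.0 ± 1.77, OXA1L 34.4 ± 0.278 and COX18 1.36 ± 0.418.

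Among matrix folding genes, the chaperonin pair HSPE1 and HSPD1 had 457 ± 42.8 and 160 ± 15.1 TPM, above HSPA9, while DNAJA3 had 26.5 ± 0.267 and DNLZ, which keeps HSPA9 soluble, 8.93 ± 5.68. ROMO1, a small inner-membrane protein associated with TIM23, had 1014 ± 65.8 TPM, above every member. AGK, a lipid kinase that is also a TIM22 subunit, had 13.3 ± 1.40 TPM, and the metaxin relative MTX3 5.50 ± 0.731. MICOS genes, whose products shape cristae and contact SAM, ran from APOOL (2.68 ± 1.43 TPM) and DNAJC11 (20.1 ± 0.284) to IMMT (62.6 ± 8.40) and MICOS13 (181 ± 4.01). The matrix proteases LONP1 and CLPP had 70.9 ± 0.879 and 60.6 ± 3.87 TPM, and the quality control genes ATAD1 and OMA1 17.9 ± 3.11 and 12.4 ± 2.54. Of the 35 that averaged at least 50 counts, 2 passed 1 log2 between the libraries, against 2.06% of all genes, both lower in replicate 2 (1.92% of all genes): DNLZ (350 and 143 counts, -1.29) and APOOL (209 and 102 counts, -1.03). Other genes overlap 41.5% of the exonic bases of GFER, 27.9% of those of DNAJC11 and 25.9% of those of DNLZ, so these are uncertain.

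Other nuclear gene families of the organelle, chosen by symbol, give these levels a scale. The median of 78 mitochondrial ribosomal protein genes was 78.7 and 71.7 TPM, of 89 nuclear respiratory chain genes 186 and 181 TPM, and of 48 SLC25 carrier genes, whose products enter through TIM22, 10.6 and 8.63 TPM. Detected members were 78, 83 and 40. The import genes lay between the carriers and the ribosomal proteins in both libraries. Of those averaging at least 50 counts, 0 of 78 ribosomal protein genes, 0 of 82 respiratory chain genes and 3 of 40 carrier genes passed 1 log2 between the libraries, against 2.06% of all genes. No test was made between these lists.

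Upstream sequences were searched for 2 elements known from nuclear genes of mitochondrial proteins, the ETS core CCGGAAG, bound by GABP among other factors, and GCGCATGC, part of the site of the nuclear respiratory factor NRF1. RefSeq promoters (GRCh38.p14) were in hand for 29 of the 32 genes, and the 250 bases before the start were read on both strands. A RefSeq start can lie inside the gene as counted, as for TIMM10 and PAM16. The ETS core stood in 10 of 29, or 34.5%, against 14.1% of 15301 protein-coding genes and 8.52% of all 35116 promoters. The 10 were GRPEL2, TIMM10, TIMM10B, TIMM13, TIMM23, TIMM29, TIMMDC1, TOMM20, TOMM6 and TOMM70. GCGCATGC stood in 3 of 29 (PAM16, TIMM9 and TOMM7), or 10.3%, against 4.39% of protein-coding genes and 2.63% of all promoters, and the full NRF1 palindrome in 0, against 1.71% and 1.03%. A match is a run of letters, not a measured binding site, and these libraries hold no measure of binding.

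The promoters of 4 members are shown because 2 of them belong to the hexamer partners with unequal levels and the other 2 to the most counted receptor and to the highest member free of exon overlap. Each runs 5′ to 3′ on the strand of its gene, ends at the base before the start, and has the matched letters in capitals.
TOMM20, chr1:235128838-235129087, minus strand: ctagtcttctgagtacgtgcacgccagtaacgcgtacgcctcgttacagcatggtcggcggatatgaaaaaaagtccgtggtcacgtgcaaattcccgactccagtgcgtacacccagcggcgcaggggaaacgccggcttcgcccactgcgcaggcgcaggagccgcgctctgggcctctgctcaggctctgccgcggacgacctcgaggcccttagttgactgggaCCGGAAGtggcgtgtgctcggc
TOMM7, chr7:22822850-22823099, minus strand: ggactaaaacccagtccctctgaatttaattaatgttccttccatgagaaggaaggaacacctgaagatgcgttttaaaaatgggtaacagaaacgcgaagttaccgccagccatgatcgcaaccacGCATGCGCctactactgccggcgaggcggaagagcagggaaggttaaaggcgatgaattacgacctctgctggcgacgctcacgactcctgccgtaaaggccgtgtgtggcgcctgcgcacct
TIMM10, chr11:57530755-57531004, minus strand: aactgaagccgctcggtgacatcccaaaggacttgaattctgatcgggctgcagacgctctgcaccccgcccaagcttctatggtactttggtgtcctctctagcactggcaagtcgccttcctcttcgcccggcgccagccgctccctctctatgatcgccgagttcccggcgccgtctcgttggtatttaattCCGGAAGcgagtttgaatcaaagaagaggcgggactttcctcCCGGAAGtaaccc
TIMM9, chr14:58427532-58427781, minus strand: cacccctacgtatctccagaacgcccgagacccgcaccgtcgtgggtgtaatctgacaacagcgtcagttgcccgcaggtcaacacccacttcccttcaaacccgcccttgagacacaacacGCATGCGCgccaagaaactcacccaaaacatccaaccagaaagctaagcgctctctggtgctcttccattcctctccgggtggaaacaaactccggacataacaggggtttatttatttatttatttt

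TIMM10 (252 and 274 TPM) carried the ETS core at 2 places, from -55 to -49 and from -13 to -7 counted back from the RefSeq start. The gene as counted reaches to 57530803, inside this window, so the nearer match lies within it. TIMM9 (44.4 and 37.9 TPM) carried GCGCATGC, on the opposite strand, from -128 to -121, and no ETS core in this window. In TOMM20 the ETS core lay from -22 to -16, and in TOMM7 GCGCATGC lay on the opposite strand from -123 to -116. The matches in TIMM9 and TOMM7 were thus at nearly the same distance from the start. Whether any of these matches bears on transcript levels was not tested.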

How the data were processed

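Poly(A)-primed RNA-seq was measured in 2 libraries of untreated HEK293T cells. Per the labels' protocols, cDNA was primed with oligo(dT), sheared and ligated as single strands. Each deposited file gives 1 library's raw counts by Ensembl gene; the values are whole numbers and were not scaled, as the file headers and totals show. Counting was by featureCounts 2.0.3 on GRCh38 after bcl2fastq 2.17 and Trim Galore 0.6.7, per the submitters' processing notes. No aligner, annotation release, strand or overlap setting, nor one for reads that match several places, is given in the sources used here. TOMM6 lies wholly in exons of another gene and both have counts, so a read could count for overlapping genes. The totals were 18011638 and 18575058 counts.

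CPM and TPM were computed here from the counts and the deposited merged exon lengths. Ratios between libraries used TMM scaling (1.01 and 0.989) with 2 as the prior count in edgeR 4.0.16 (R 4.3.3), over 14704 genes averaging at least 50 counts, with exact binomial 95% intervals. edgeR's common biological coefficient of variation was 15.6%. DESeq2 1.42.0 size factors were an alternative, as were GENCODE 29 transcript lengths and GC content in 20 bins. Exon overlap came from bedtools 2.31.1. The ratio step was tested on simulated data with a spread set below that common value. The check asked only that the median ratio of genes changed by known folds was recovered. Without molecular identifiers reads are not independent, so intervals and floors cover counting error only. With 1 group no test between conditions was run. The members and lists were chosen with earlier results of these data known. All 32 members are named, and of each group of other import genes the 2 highest and 2 lowest by mean TPM. TIMM23B was named as a copy of a member. Marker genes and partners in exon overlap are named as such.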

Additional observations from a re-analysis of the deposited data

How the results depend on the processing

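No paired analysis was possible because the labels give 1 group. The log2 distance of the members' median from the protein-coding median was 4.41, and became 4.51 with the longest coding transcript as the length, 3.50 in CPM, 4.11 without the 4 members whose exons overlap other genes by at least 25%, and 2.85 against detected protein-coding genes alone, the last chosen after seeing the data. For the other import genes 3.28 became 3.88 and 3.03 with the first 2 of these. The share of TOM was 44.4% of the members' TPM, 45.3% with transcript lengths, 38.2% in CPM and 35.8% without the same 4 members. That of the small TIM genes was 26.0%, 19.3%, 16.8% and 24.6%. Leaving out those 4 here was also chosen after seeing the data. Members with less overlap, among them TOMM5 and TOMM40L, stayed in. In log2, the members' median minus that of the ribosomal proteins went from -0.31 to -0.044 in CPM, that of the carriers from 2.67 to 2.10 in CPM, and that of the respiratory chain from -1.60 to -1.77 with transcript lengths and -1.17 in CPM. The median replicate ratio was 0.02, and -0.013 with library totals alone. At 0.5 log2 in place of 1, 1 member passed in place of 0. The share of all genes past 1 log2 was 2.06%, 4.07% with a minimum mean of 10 counts and 11.4% with no filter. TIMM13 over TIMM8B reversed to 0.643 with transcript lengths. Leaving out 1 library returns the value of the other, and in TPM no pair changed direction that way. In a 300-base window, chosen after seeing the data, the ETS core stood in 13 of the 29 promoters (44.8%). The shares over that window were 16.7% of protein-coding genes and 10.3% of all promoters. GCGCATGC stood in 4 of the 29 (13.8%), against 4.90% and 3.05%. With 2 libraries the SDs are themselves imprecise.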
